A study of Homo sapiens with 12 samples.

Results

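The RNA of 10 human genes that act with or next to the BET bromodomain proteins was followed in neuroblastoma cells treated with the BET inhibitor JQ1. The genes were BRD2, BRD3, HEXIM1, HEXIM2, LARP7, MEPCE, CDK9, CCNT1, CCNT2 and AFF4. They were chosen for their known roles, with earlier results of these data already known. Each was read from every array probe set that named it and no other gene in the platform annotation, older symbols included. This gave 31 probe sets for the 10 genes, of 49293 probe sets and 18118 genes tested. A probe set is a group of short probes read together as 1 measurement of a gene. HEXIM2, MEPCE and CCNT1 had 1 probe set each, and no probe set named a member together with another gene.

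The cells came from a pair of established MYCN-amplified neuroblastoma lines, Kelly and BE(2)-C, each measured as a single line. The 4 groups were Kelly with 1 µM JQ1, Kelly with DMSO, BE(2)-C with 1 µM JQ1 and BE(2)-C with DMSO, all after 24 h, with 3 Affymetrix PrimeView arrays per group and 12 arrays in all. DMSO is the solvent and serves as the vehicle control; JQ1 occupies the acetyl-lysine pocket of BET bromodomains. Nothing in the labels says whether replicates were grown separately, so a p-value here reflects how far these arrays scatter, and that scatter may be technical.

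BET proteins such as BRD2 and BRD3 bind acetylated histones and promote transcription by RNA polymerase II. The kinase P-TEFb, made of CDK9 and cyclin T1 or T2 (CCNT1, CCNT2), releases the paused polymerase into elongation. Much of the cell's P-TEFb is held inactive in the 7SK small nuclear ribonucleoprotein, where HEXIM1 or HEXIM2 inhibits the kinase, LARP7 binds the end of the 7SK RNA, and MEPCE caps that RNA. AFF4 is the scaffold of the super elongation complex, which carries active P-TEFb. HEXIM1 RNA is widely used as a marker of exposure to BET inhibitors.

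Array medians were 61.4 to 67.3 on the deposited intensity scale, and all values below are log2 of that intensity unless given as a fold. Precision is limited by having 3 arrays in each group, and for a log2 fold change in 1 line the standard error (SE) had a median of 0.21 over probe sets. Hybridization control probe sets read control transcripts spiked into every labelled sample. They averaged 12.94 ± 0.69 in Kelly with JQ1 and 11.90 ± 1.29 in Kelly with DMSO (mean ± SD, n = 3 each). Their BE(2)-C averages were 11.41 ± 1.20 with JQ1 and 11.20 ± 1.54 with DMSO (n = 3 each). A slope on this control signal passed the threshold in 24430 of the 49293 probe sets (49.6%), among them 13 of the 31 member probe sets, and its part in any result was not tested beyond the values given below. All 7 measured adrenergic neuroblastoma markers (PHOX2A, HAND2, GATA3, GATA2, ISL1, DBH and TH) had group means over 7 in every group. Among them TH (log2 fold change -1.90 and -1.48) and DBH (-0.98 and -1.60) passed as lower with JQ1 in Kelly and BE(2)-C. PHOX2A passed as higher in BE(2)-C (0.83). None of the 4 haematopoietic, 4 epithelial, 4 mesenchymal and 1 Schwann cell markers measured reached a group mean of 7. The closest was the mesenchymal marker DCN, at 6.84 in BE(2)-C with DMSO and 4.97 with JQ1 (limma adjusted p = 0.000536). In Kelly DCN averaged 4.93 with JQ1 and 4.86 with DMSO. The log2 of the summed intensity of the haematopoietic markers was 6.79 to 7.32 with JQ1 and 6.40 to 6.88 with DMSO in Kelly, and 6.51 to 6.73 with JQ1 and 6.59 to 6.91 with DMSO in BE(2)-C. The same sum over the epithelial markers was 6.78 to 7.09, 6.76 to 7.25, 6.98 to 7.14 and 6.75 to 7.0 in these groups. Over the mesenchymal markers it was 7.38 to 7.68, 7.02 to 7.50, 7.06 to 7.37 and 7.77 to 8.03. The 1 Schwann cell marker measured, S100B, read 4.75 to 5.96, 4.90 to 5.0, 6.54 to 6.98 and 6.15 to 6.87 in the same groups, higher in BE(2)-C than in Kelly under each treatment. Since arrays read the RNA of many cells, fewer cells with a transcript and less of it per cell cannot be told apart.

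The promoter of HEXIM1, the member that moved most, is shown beside those of its paralogue HEXIM2, which did not move with it; the genes lie next to each other on human chromosome 17. Each sequence is the 250 bases before an annotated RefSeq transcription start (GRCh38.p14, + strand, 5′ to 3′), at chr17:45148225-45148474 for HEXIM1, chr17:45159924-45160173 for the upstream start of HEXIM2 and chr17:45161625-45161874 for its downstream start. Capitals mark every match, on either strand, to the letters TATAAA known from core promoters, to the CCAAT box, to the E-box spelled CACGTG and to the Sp1-type box spelled GGGCGG. A run spelled ATTGG is the CCAAT box read from the other strand. Matches to different motifs do not overlap in these windows.
HEXIM1: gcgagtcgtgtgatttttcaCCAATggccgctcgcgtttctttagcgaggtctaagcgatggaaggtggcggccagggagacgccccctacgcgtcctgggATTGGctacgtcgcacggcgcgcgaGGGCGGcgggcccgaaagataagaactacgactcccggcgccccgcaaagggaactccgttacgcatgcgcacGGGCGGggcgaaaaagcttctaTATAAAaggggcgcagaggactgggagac
HEXIM2 upstream start: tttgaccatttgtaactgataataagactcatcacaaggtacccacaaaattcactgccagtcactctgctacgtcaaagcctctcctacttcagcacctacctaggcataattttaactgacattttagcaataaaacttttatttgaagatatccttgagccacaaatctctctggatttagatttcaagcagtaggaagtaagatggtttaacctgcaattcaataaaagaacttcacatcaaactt
HEXIM2 downstream start: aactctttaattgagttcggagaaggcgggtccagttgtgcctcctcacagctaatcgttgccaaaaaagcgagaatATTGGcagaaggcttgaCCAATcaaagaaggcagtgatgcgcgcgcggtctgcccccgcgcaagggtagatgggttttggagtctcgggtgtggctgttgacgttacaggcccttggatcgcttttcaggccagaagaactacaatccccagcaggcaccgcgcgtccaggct

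The HEXIM1 window held a TATAAA beginning 29 bases before the start, CCAAT matches at 230 and 149 bases and GGGCGG matches at 124 and 51 bases before it. The window of the upstream HEXIM2 start held none of these letters, and that of the downstream start held CCAAT matches at 173 and 156 bases. TATAAA occurred in 10.7% of the same windows of 35116 RefSeq starts and in 1 of the 18 member windows, that of HEXIM1. CCAAT occurred in 32% of all windows and 6 of the 18, GGGCGG in 42.6% and 13 of the 18, and CACGTG in 6.3% and 3 of the 18, those of MEPCE, CCNT1 and AFF4. The HEXIM1 window was 62.4% G and C, and the HEXIM2 windows were 36.0% and 55.2%, against a median of 58.0% over all starts. The HEXIM2 starts lie 11699 and 13400 bases downstream of the HEXIM1 start. A match describes the letters only and is no evidence that a factor binds there.

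The first question was which of these genes changed with JQ1 in each line. HEXIM1 rose several-fold and BRD2 less than 2-fold in both lines, HEXIM2 fell in Kelly, and BRD3 passed on 1 of 4 probe sets in Kelly. In Kelly, 8 of the 31 member probe sets were higher with JQ1 at an adjusted p under 0.05 (limma, Benjamini-Hochberg over all probe sets), where 0.931% of all probe sets were, and 1 was lower, where 3.26% of all were. In BE(2)-C, 7 were higher, against 1.24% of all probe sets, and none was lower, against 1.53% of all. Counted by the probe set of highest mean, 2 of the 10 genes were higher in Kelly (background 1.40%) and 1 was lower (4.06%), and 2 were higher in BE(2)-C (1.71%) and none lower (2.05%). The median log2 fold change over the 31 member probe sets was 0.29 in Kelly and 0.37 in BE(2)-C, where the medians over all probe sets were 0.05 and -0.01. All 3 JQ1 arrays lay above all 3 DMSO arrays for 11 member probe sets in Kelly (10.9% of all probe sets) and for 13 in BE(2)-C (9.75%), and below them for 1 in Kelly (10.8%) and 0 in BE(2)-C (9.20%).

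**Figure D1:**
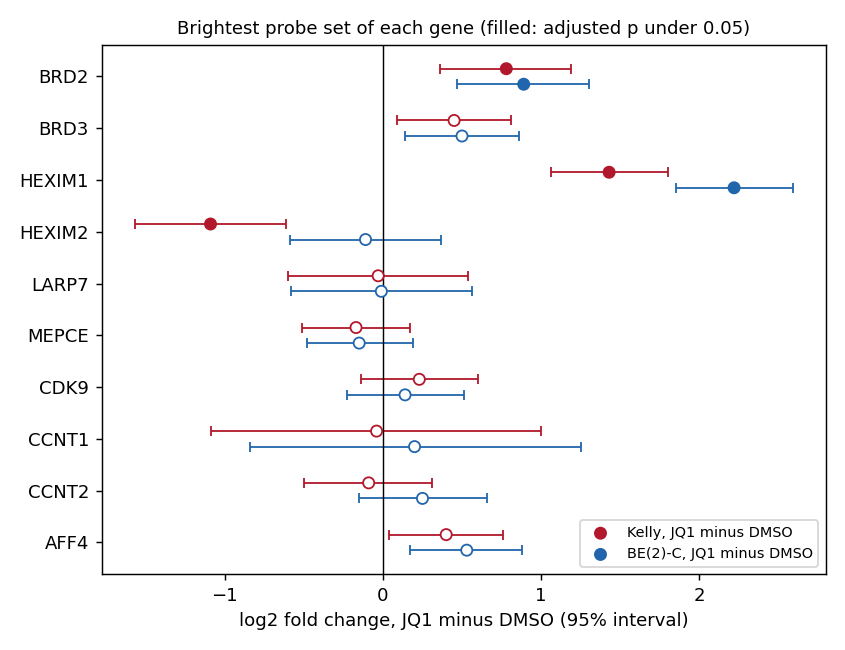
Log2 fold change of JQ1 over DMSO (x axis) for the probe set of highest mean of each of the 10 genes (rows), in Kelly (red) and BE(2)-C (blue), with 95% intervals from limma; filled points have an adjusted p under 0.05. HEXIM1 lies at 1.43 in Kelly and 2.22 in BE(2)-C, and HEXIM2 at -1.09 in Kelly and -0.11 in BE(2)-C.

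BRD2 encodes a BET protein with tandem bromodomains that reads acetylated histone H4. Its brighter probe set read 10.92, 10.76 and 10.47 in the 3 Kelly JQ1 arrays, against 10.05, 10.22 and 9.56 in the Kelly DMSO arrays. The BE(2)-C arrays read 10.47, 10.66 and 10.58 with JQ1, against 9.49, 9.81 and 9.75 with DMSO. Every JQ1 array lay above every DMSO array of its line, and the lowest Kelly values of each treatment were those of replicate 3. For BRD2 the rise in Kelly was 1.71-fold (log2 fold change 0.78, SE 0.19, 95% interval 0.36 to 1.19, limma adjusted p = 0.0412), and the BE(2)-C rise was 1.85-fold (0.89, SE 0.19, 0.47 to 1.30, adjusted p = 0.0283). The other BRD2 probe set read 8.29, 8.05 and 7.65 with JQ1 in Kelly, against 7.35, 7.15 and 6.93 with DMSO. For BE(2)-C the values were 7.38, 7.46 and 7.50 with JQ1, against 6.80, 6.47 and 6.62 with DMSO. It gave a similar size, again with no overlap: 1.80-fold in Kelly (adjusted p = 0.0225), and for BE(2)-C 1.76-fold (adjusted p = 0.0359).

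The BRD2 calls within a line lay near the threshold and were often lost when 1 array was left out, also an array of the other line. The log2 fold change stayed positive throughout. For the brighter probe set, the Kelly log2 fold change was 0.59 to 0.92 and the limma adjusted p 0.0323 to 0.119 as each of the 12 arrays was left out in turn. The Kelly call was lost in 9 of the 12 cases: without replicate 1 or 3 of Kelly DMSO, 1 or 2 of Kelly JQ1, 2 or 3 of BE(2)-C DMSO, or any BE(2)-C JQ1 replicate. It was also lost in a fit of the 6 Kelly arrays alone (adjusted p = 0.166). The BE(2)-C call was lost in 6 of the 12, without any of that line's own arrays (log2 fold change 0.79 to 0.95, adjusted p up to 0.129). For the other probe set the Kelly call was lost in 3 of the 12, without replicate 1 or 2 of Kelly JQ1 or replicate 2 of Kelly DMSO, with adjusted p up to 0.0801, and in the fit of 6 arrays (adjusted p = 0.126). Its BE(2)-C call was lost with a trended, robust prior (adjusted p = 0.0793) and in 7 of the 12, with adjusted p up to 0.161: without any BE(2)-C JQ1 replicate, replicate 2 or 3 of BE(2)-C DMSO, replicate 1 of Kelly DMSO or replicate 2 of Kelly JQ1. Averaged over both lines, both BRD2 probe sets changed by 0.83 on the log2 scale (limma adjusted p = 0.00268 and 0.00211), and both calls held in 12 of 12 leave-outs. The brighter set fell with the hybridization control signal (slope -0.14 per log2 unit, adjusted p = 0.0262); the other set had a slope of -0.03 (adjusted p = 0.707).

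BRD3 encodes the related BET protein best known for binding acetylated GATA1 in blood cells. The log2 fold changes of its 4 probe sets were all above 0, between 0.39 and 0.55 in Kelly and between 0.36 and 0.50 in BE(2)-C. Of these, only probe set 11757298_s_at passed within a line. It read 10.79, 10.72 and 10.78 with JQ1 in Kelly, against 10.23, 10.22 and 10.19 with DMSO. Values in BE(2)-C were 10.67, 10.73 and 10.59 with JQ1, against 10.09, 10.27 and 10.12 with DMSO. The groups did not overlap in either line, and the spread within the Kelly groups was small, with SDs of 0.04 for JQ1 and 0.02 for DMSO. The 1.47-fold rise in Kelly passed (0.55, SE 0.12, 95% interval 0.29 to 0.82, limma adjusted p = 0.0257), and the 1.41-fold difference in BE(2)-C did not (0.50, 0.23 to 0.76, adjusted p = 0.0539). With the replicate number as a block the Kelly call did not hold (adjusted p = 0.0634). Nor did it hold without replicate 1 or 2 of either Kelly group or replicate 1 of BE(2)-C JQ1, with adjusted p up to 0.0962, or in a fit of the 6 Kelly arrays alone (adjusted p = 0.161).

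The BRD3 probe set of highest mean read 10.94, 10.88 and 10.39 with JQ1 in Kelly, against 10.41, 10.31 and 10.14 with DMSO. In BE(2)-C it read 10.78, 10.81 and 10.91 with JQ1, against 10.25, 10.35 and 10.40 with DMSO. Replicate 3 of Kelly JQ1 lay just below the highest DMSO array, and the BE(2)-C groups did not overlap. Its log2 fold changes were 0.45 in Kelly (95% interval 0.09 to 0.81, limma adjusted p = 0.157) and 0.50 in BE(2)-C (0.14 to 0.86, adjusted p = 0.164). Averaged over both lines, 2 of the 4 BRD3 probe sets passed: 11757298_s_at at 0.53 (adjusted p = 0.00298), in 12 of 12 leave-outs, and the set of highest mean at 0.48 (adjusted p = 0.0271), in 4 of 12. That second call was lost without any BE(2)-C JQ1 replicate, replicate 2 or 3 of BE(2)-C DMSO, replicate 1 or 2 of Kelly JQ1 or replicate 2 of Kelly DMSO, with adjusted p up to 0.0717.

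HEXIM1 encodes the main inhibitor subunit that, once bound to 7SK RNA, blocks CDK9. Its probe set of highest mean read 11.35, 11.24 and 11.24 in Kelly with JQ1, against 9.77, 10.03 and 9.74 with DMSO. The BE(2)-C arrays read 10.81, 11.06 and 10.74 with JQ1, against 8.34, 8.70 and 8.91 with DMSO. The lowest JQ1 array of either line was above the highest DMSO array of both lines. The rise of HEXIM1 in Kelly was 2.69-fold (log2 fold change 1.43, SE 0.17, 95% interval 1.06 to 1.80, limma adjusted p = 0.000621), and the BE(2)-C rise was 4.66-fold (2.22, SE 0.17, 1.85 to 2.59, adjusted p = 7.64e-05).

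The 4 other HEXIM1 probe sets rose as well, by different factors. Probe set 11721002_s_at read 11.25, 10.87 and 11.03 with JQ1 in Kelly, against 9.35, 9.62 and 8.74 with DMSO, a 3.51-fold rise (adjusted p = 0.00566). For BE(2)-C the values were 10.21, 10.18 and 9.96 with JQ1, against 6.74, 7.90 and 7.92 with DMSO, a 6.05-fold rise (adjusted p = 0.00097). Replicate 1 of BE(2)-C DMSO stood more than 1 log2 unit below the other replicates there. Probe set 11721003_at read 10.39, 10.23 and 10.26 with JQ1 in Kelly, against 8.84, 9.12 and 8.75 with DMSO, a 2.63-fold rise (adjusted p = 0.000234). Values in BE(2)-C were 9.84, 9.90 and 9.79 with JQ1, against 7.83, 7.99 and 8.11 with DMSO, a 3.64-fold rise (adjusted p = 7.64e-05). This set had a small spread, with SDs of 0.06 for JQ1 and 0.14 for DMSO in BE(2)-C.

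Probe set 11721001_at read 10.69, 10.51 and 10.53 with JQ1 in Kelly, against 8.70, 8.81 and 7.67 with DMSO, a 4.55-fold rise (adjusted p = 0.000442). In BE(2)-C it read 9.41, 9.39 and 9.22 with JQ1, against 6.82, 6.82 and 7.0 with DMSO, a 5.50-fold rise (adjusted p = 0.000432). Replicate 3 of Kelly DMSO was low on this set, as it was on 11721002_s_at. Probe set 11721000_at read 10.19, 10.12 and 9.65 with JQ1 in Kelly, against 7.96, 7.86 and 7.54 with DMSO, a 4.61-fold rise (adjusted p = 4.94e-05). The BE(2)-C arrays read 8.76, 8.65 and 8.85 with JQ1, against 6.82, 6.56 and 6.72 with DMSO, a 4.15-fold rise (adjusted p = 0.000144). The JQ1 and DMSO groups of a line overlapped on none of the 5 HEXIM1 probe sets, and all 10 calls held in 12 of 12 leave-outs.

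**Figure D2:**
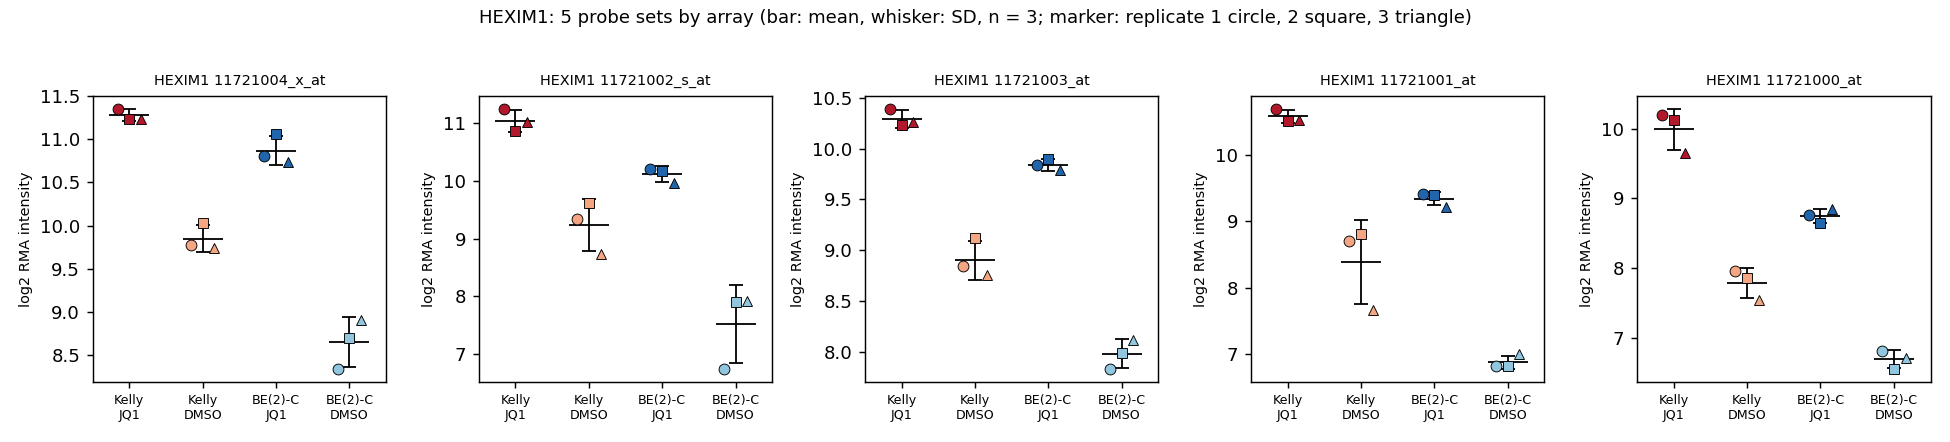
Log2 intensity (y axis, its own range in each panel) of the 5 HEXIM1 probe sets in each of the 12 arrays, by group (x axis: Kelly JQ1, Kelly DMSO, BE(2)-C JQ1, BE(2)-C DMSO); bars are group means and whiskers SDs (n = 3), and the marker shape gives the replicate. On each set the JQ1 arrays of a line lie above its DMSO arrays, and BE(2)-C with DMSO holds the lowest values.

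For 3 of the HEXIM1 probe sets the fitted values also moved with the hybridization control signal: slopes were -0.14 for the set of highest mean (adjusted p = 0.0121), -0.30 for 11721002_s_at (adjusted p = 0.00134) and -0.18 for 11721001_at (adjusted p = 0.0441). With that signal as a covariate HEXIM1 was still called in both lines. HEXIM1 was also read under all 23 alternative settings, which include averaging all its probe sets. Its log2 fold change stayed between 1.38 and 1.80 in Kelly (limma adjusted p 5.79e-06 to 0.0105). In BE(2)-C it stayed between 2.07 and 2.35 (4.12e-07 to 0.0048). The set of highest mean by itself stayed between 1.38 and 1.57 in Kelly, over 21 settings.

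HEXIM2 encodes the second inhibitor, which can take the place of HEXIM1 in the 7SK particle. Its 1 probe set read 7.19, 6.89 and 6.39 with JQ1 in Kelly, against 7.97, 7.70 and 8.07 with DMSO. For BE(2)-C the values were 7.75, 7.58 and 7.75 with JQ1, against 8.15, 7.50 and 7.75 with DMSO. All Kelly JQ1 arrays lay below all Kelly DMSO arrays, whereas the BE(2)-C groups overlapped. HEXIM2 was 2.13-fold lower with JQ1 in Kelly (log2 fold change -1.09, SE 0.22, 95% interval -1.57 to -0.61, limma adjusted p = 0.016). The BE(2)-C difference was -0.11 (-0.59 to 0.37, adjusted p = 1), an interval that includes no change. The Kelly call was lost without replicate 1 of Kelly DMSO (adjusted p = 0.0734), under quantile normalization (adjusted p = 0.0586) and in a fit of the 6 Kelly arrays alone (adjusted p = 0.0769). The log2 fold change ranged from -1.27 to -0.87 over 12 leave-outs. The average over the lines was -0.60 (adjusted p = 0.0369). That call held in 3 of 12 leave-outs, those of replicate 1 of Kelly JQ1, replicate 2 of Kelly DMSO and replicate 2 of BE(2)-C DMSO, and its adjusted p reached 0.093. It was lost too under quantile normalization (adjusted p = 0.106) and with a trended, robust prior (adjusted p = 0.0589).

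LARP7 encodes the protein that holds the end of 7SK RNA and keeps it stable. None of its 5 probe sets passed, with log2 fold changes between -0.30 and 0.08 in Kelly and between -0.11 and 0.01 in BE(2)-C. The set of highest mean read 9.24, 9.68 and 10.25 with JQ1 in Kelly, against 9.22, 10.02 and 10.01 with DMSO. Values in BE(2)-C were 10.11, 10.20 and 10.02 with JQ1, against 9.99, 10.20 and 10.17 with DMSO. The groups overlapped in both lines, and the Kelly arrays spread over about 1 log2 unit within each treatment. The differences were -0.03 in Kelly (95% interval -0.60 to 0.54, limma adjusted p = 0.96) and -0.01 in BE(2)-C (-0.58 to 0.56, adjusted p = 1).

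MEPCE encodes the methyltransferase that caps 7SK RNA. It read 8.02, 8.10 and 7.87 with JQ1 in Kelly, against 8.25, 8.0 and 8.27 with DMSO. In BE(2)-C it read 9.10, 8.85 and 9.15 with JQ1, against 9.37, 9.18 and 8.99 with DMSO. Treatments overlapped within each line, and the lines stood apart. The JQ1 differences were -0.17 in Kelly (95% interval -0.51 to 0.17, limma adjusted p = 0.532) and -0.15 in BE(2)-C (-0.48 to 0.19, adjusted p = 0.982).

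CDK9 encodes the kinase of P-TEFb, and its 3 probe sets differed in direction without any passing in the main fit. The set of highest mean read 8.87, 9.0 and 8.63 with JQ1 in Kelly, against 8.51, 8.51 and 8.80 with DMSO. The BE(2)-C arrays read 9.14, 9.37 and 9.21 with JQ1, against 8.87, 9.08 and 9.37 with DMSO. The groups overlapped in both lines. Its differences were 0.23 in Kelly (95% interval -0.14 to 0.60, limma adjusted p = 0.457) and 0.14 in BE(2)-C (-0.23 to 0.51, adjusted p = 1). Probe set 11720659_at had differences of -0.55 in Kelly (-1.27 to 0.17) and 0.38 in BE(2)-C (-0.34 to 1.10), and 11720661_at of 0.33 (-0.27 to 0.92) and -0.15 (-0.74 to 0.45). The slopes of these other sets on the hybridization control signal ran in opposite directions, at -0.28 (adjusted p = 0.0132) and 0.28 (adjusted p = 0.000697). Without the DMSO array of highest control signal in each line, 11720661_at passed in Kelly (adjusted p = 0.0226) and in the average (adjusted p = 0.0432). That setting was chosen after seeing the data.

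CCNT1 encodes cyclin T1, the main cyclin of P-TEFb. Its 1 probe set read 7.91, 7.37 and 7.08 with JQ1 in Kelly, against 7.94, 8.37 and 6.17 with DMSO. For BE(2)-C the values were 8.10, 8.32 and 7.89 with JQ1, against 7.22, 8.24 and 8.24 with DMSO. The low arrays were replicate 3 of Kelly DMSO and replicate 1 of BE(2)-C DMSO, the DMSO arrays with the highest control signal of their lines. The differences were -0.04 in Kelly (95% interval -1.09 to 1.00, limma adjusted p = 0.967) and 0.20 in BE(2)-C (-0.84 to 1.25, adjusted p = 1). Its slope on the control signal was -0.48 (adjusted p = 0.00108).

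CCNT2, the gene of cyclin T2, had weak signals: means over the 12 arrays were 5.94, 4.65 and 4.35 for its 3 probe sets, and array medians of the background probes were 3.91 to 4.55. None passed, with JQ1 differences between -0.36 and -0.01 in Kelly and between 0.05 and 0.46 in BE(2)-C. The set of highest mean read 5.70, 5.99 and 6.06 with JQ1 in Kelly, against 6.05, 6.29 and 5.69 with DMSO, a difference of -0.09 (95% interval -0.50 to 0.31). Values in BE(2)-C were 5.90, 6.08 and 6.14 with JQ1, against 5.54, 5.92 and 5.89 with DMSO, a difference of 0.25 (-0.15 to 0.66). The dimmest set, 11726081_a_at, had a slope of -0.45 on the control signal (adjusted p = 4.83e-05).

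**Figure D3:**
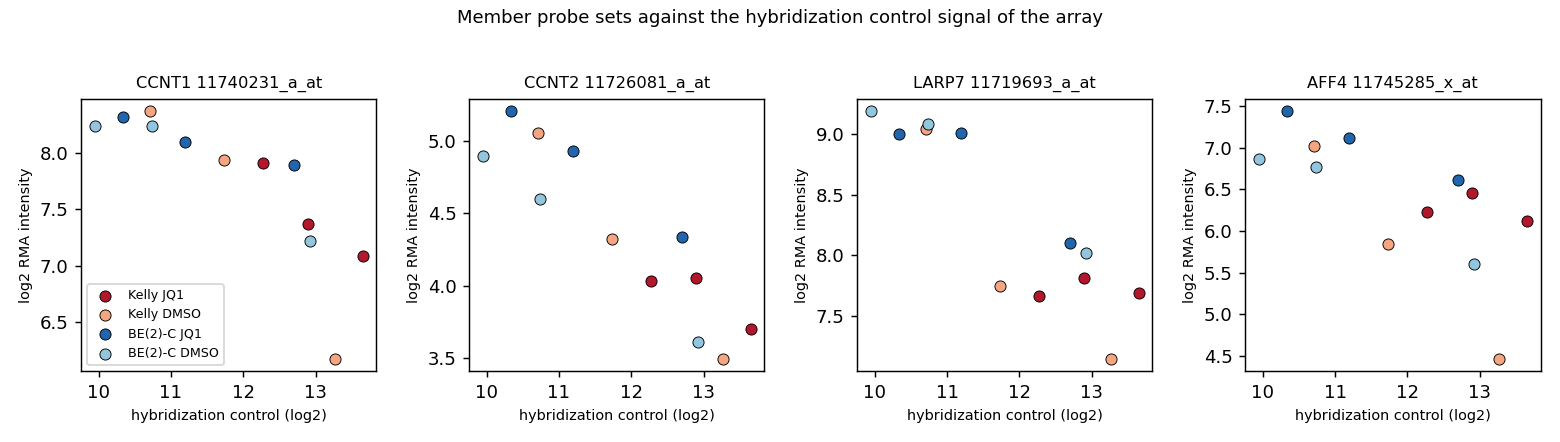
Log2 intensity (y axis) of 4 member probe sets against the hybridization control signal of the same array (x axis, log2). The sets are of CCNT1, CCNT2, LARP7 and AFF4, with 1 point per array, coloured by group. Each was picked as the set of its gene that fell most steeply with this signal. The LARP7 and AFF4 sets of highest mean had slopes of 0.02 and -0.06, which did not pass. In each panel the array of Kelly with DMSO at a control signal of 13.26 is the lowest point, and the highest point lies at a control signal of 9.94 to 10.70.

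AFF4 encodes the scaffold that joins P-TEFb to the ELL factors. Its probe set of highest mean read 10.54, 10.47 and 10.46 with JQ1 in Kelly, against 9.99, 10.15 and 10.14 with DMSO. In BE(2)-C it read 10.90, 10.61 and 10.26 with JQ1, against 10.04, 9.96 and 10.19 with DMSO. The groups did not overlap in either line, but neither difference passed: 0.40 in Kelly (95% interval 0.04 to 0.76, limma adjusted p = 0.211) and 0.53 in BE(2)-C (0.17 to 0.88, adjusted p = 0.142). The average over the lines was 0.46, or 1.38-fold (adjusted p = 0.0324), and with the replicate block it did not pass (adjusted p = 0.0716). Averaging all AFF4 probe sets gave 0.33, which did not pass (adjusted p = 0.214). These include 11720420_at, whose mean of 4.56 lay near the background probe medians of 3.91 to 4.55. The call on the set of highest mean was also lost in 7 of 12 leave-outs, with adjusted p up to 0.0937. These were the fits without replicate 1 or 2 of Kelly DMSO, Kelly JQ1 or BE(2)-C JQ1, or replicate 2 of BE(2)-C DMSO. The 5 dimmer AFF4 sets did not pass in the main fit, at 0.05 to 0.49 in Kelly and, for BE(2)-C, -0.12 to 0.66. The widest spread was that of 11745285_x_at, whose slope on the control signal was -0.55 (adjusted p = 0.000512). With that signal as a covariate, 11745285_x_at passed in Kelly (limma adjusted p = 0.0297) and in the average (adjusted p = 0.00518). Under the same covariate the set of highest mean passed in BE(2)-C (adjusted p = 0.0286), and 11720421_at in the average (adjusted p = 0.0443).

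**Figure D4:**
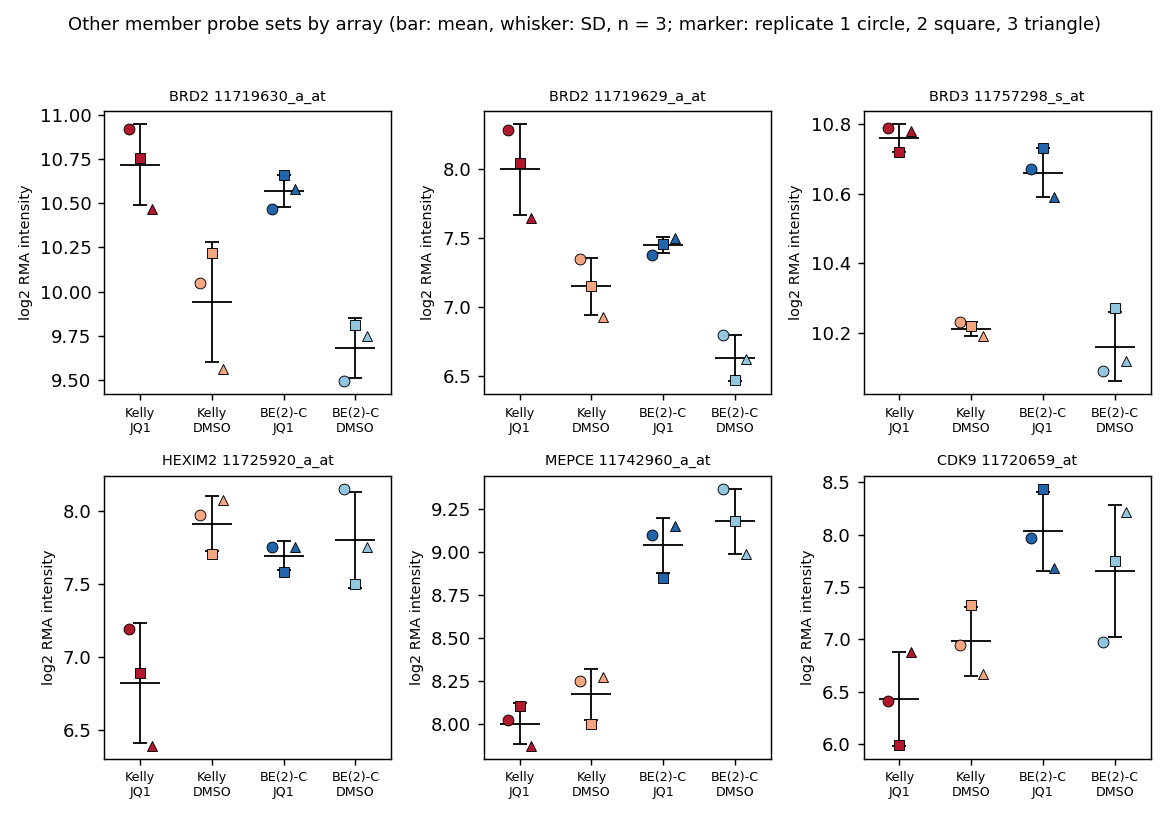
Log2 intensity (y axis, its own range in each panel) in each of the 12 arrays for both BRD2 probe sets, a BRD3 set, HEXIM2, MEPCE and a CDK9 set, by group (x axis); bars are means and whiskers SDs (n = 3), and the marker shape gives the replicate. The Kelly JQ1 arrays lie lowest for HEXIM2, at 6.39 to 7.19, and MEPCE separates the lines rather than the treatments.

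In the average of both lines, 10 of the 31 member probe sets were higher with JQ1, against 2.39% of all probe sets, and 1 was lower, against 4.90%. The 10 were all 5 of HEXIM1, both of BRD2, 2 of BRD3 and 1 of AFF4, and the lower one was that of HEXIM2. By the probe set of highest mean, 4 genes were higher (background 3.47%) and 1 lower (6.21%). In the main fit no probe set of LARP7, MEPCE, CDK9, CCNT1 or CCNT2 passed in either line or in the average. Their lowest adjusted p in the average was 0.481. Calls of CCNT2 and CDK9 sets under alternative settings are given above.

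The next question was whether the JQ1 response differed between the lines. The difference of the responses, BE(2)-C minus Kelly, passed for 0 of the 31 member probe sets by limma, against 0.323% of all probe sets, and for 0 of the 10 genes, against 0.431% of all genes. Of the probe sets, 3 had an unadjusted p under 0.05, against 9.95% of all. These were a pair of HEXIM1 sets and HEXIM2, singled out here by that p. For HEXIM1 the log2 fold change was 2.22 in BE(2)-C and 1.43 in Kelly on the set of highest mean, a difference of 0.79 (95% interval 0.27 to 1.32, adjusted p = 0.287). On 11721003_at it was 1.87 in BE(2)-C and 1.39 in Kelly, a difference of 0.47 (0.03 to 0.91, adjusted p = 0.477), and on 11721000_at it was 2.05 in BE(2)-C and 2.20 in Kelly, a difference of -0.15 (-0.70 to 0.39). The 5 HEXIM1 sets thus ran from -0.15 to 0.79 and did not all point the same way. With the hybridization control signal as a covariate, the set of highest mean had a difference of 0.68 and just passed (adjusted p = 0.0499). HEXIM2 had a log2 fold change of -0.11 in BE(2)-C and -1.09 in Kelly, a difference of 0.98 (0.30 to 1.66, adjusted p = 0.32). Its adjusted p was 0.0816 to 0.633 over 22 alternative settings, so a difference between the lines was not shown for HEXIM2.

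**Figure D5:**
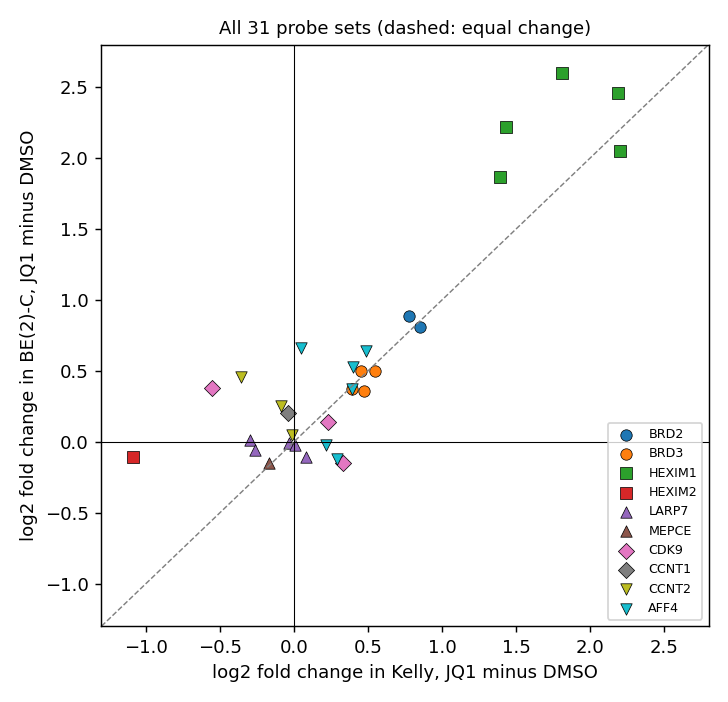
Log2 fold change of JQ1 over DMSO in BE(2)-C (y axis) against that in Kelly (x axis) for all 31 member probe sets, with 1 colour and marker per gene; the dashed line marks equal changes. The 5 HEXIM1 sets lie between 1.39 and 2.20 in Kelly and between 1.87 and 2.60 in BE(2)-C, and the HEXIM2 set at -1.09 in Kelly.

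The lines were then compared under each treatment, to see how the members' levels depend on the line. RNA quality signs moved with the line: the log2 signal of 3′ minus 5′ ACTB probe sets was 0.83 to 0.99 in BE(2)-C and 1.25 to 2.24 in Kelly under JQ1, and 0.63 to 1.24 in BE(2)-C and 1.24 to 2.22 in Kelly under DMSO. The highest values, 2.24 and 2.22, were those of replicate 3 of Kelly JQ1 and Kelly DMSO, and the part of this signal in the differences between the lines was not tested. Under DMSO, 1 member probe set was higher in BE(2)-C than in Kelly, against 6.09% of all probe sets, and 5 were lower, against 5.95%. The 5 lower ones were those of HEXIM1, and the higher one was that of MEPCE. By genes this is 1 higher (6.69% of all genes) and 1 lower (7.46%). The 3 BE(2)-C arrays lay above the 3 Kelly arrays for 5 member probe sets (11.4% of all) and below them for 6 (11.9%). HEXIM1 averaged 8.65 ± 0.29 in BE(2)-C with DMSO and 9.85 ± 0.16 in Kelly with DMSO on its set of highest mean (SD, n = 3 each), a log2 difference of -1.20 (SE 0.17, limma adjusted p = 0.000511). The 4 other sets were lower in BE(2)-C by 0.93 to 1.72 on the log2 scale, with adjusted p from 0.000989 to 0.00263, and all 5 calls held in 12 of 12 leave-outs. MEPCE averaged 9.18 ± 0.19 in BE(2)-C with DMSO and 8.17 ± 0.15 in Kelly with DMSO (n = 3 each), a 2.01-fold higher level (log2 difference 1.01, SE 0.16, adjusted p = 0.00095).

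Under JQ1, 4 member probe sets were higher in BE(2)-C than in Kelly, against 12.3% of all probe sets, and 4 were lower, against 7.68%. By genes, 2 were higher (12.4% of all genes) and 0 lower (9.57%). The groups did not overlap for 11 member probe sets that were above in BE(2)-C (22.1% of all) and 7 that were below (26.0%). The median difference over all probe sets was -0.11 here, and -0.05 after quantile normalization. MEPCE remained higher, at 9.04 ± 0.16 in BE(2)-C and 8.0 ± 0.12 in Kelly (SD, n = 3 each; difference 1.04, adjusted p = 0.000683), in 12 of 12 leave-outs. HEXIM2 was higher at 7.69 ± 0.10 in BE(2)-C and 6.82 ± 0.41 in Kelly (difference 0.87, adjusted p = 0.0161). That call was lost without replicate 3 of Kelly JQ1 or replicate 1 of BE(2)-C JQ1, with adjusted p up to 0.0603, and under quantile normalization (0.73, adjusted p = 0.084). Under DMSO the HEXIM2 difference was -0.11 (95% interval -0.59 to 0.37, adjusted p = 0.902).

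The CDK9 probe set 11720659_at read 7.97, 8.44 and 7.68 in BE(2)-C with JQ1, against 6.41, 5.99 and 6.88 in Kelly with JQ1, a difference of 1.60 (SE 0.33, adjusted p = 0.00515). The brightest CDK9 set differed by 0.41 (adjusted p = 0.107) and 11720661_at by -0.78 (adjusted p = 0.0639), so the 3 sets disagreed. LARP7 was higher in BE(2)-C on 1 of 5 sets, 11719694_a_at (0.95, adjusted p = 0.0399). That LARP7 call was lost in 6 of 12 leave-outs, with adjusted p up to 0.141: without any Kelly JQ1 replicate, replicate 1 or 2 of BE(2)-C JQ1 or replicate 2 of BE(2)-C DMSO. It was lost as well under quantile normalization (0.64, adjusted p = 0.122) and with an offset of 32 before log2 (0.90, adjusted p = 0.0537). The control signal averaged 11.41 in BE(2)-C with JQ1 and 12.94 in Kelly with JQ1. With that signal as a covariate the LARP7 difference was 0.66 and did not pass (adjusted p = 0.103), the CDK9 difference on 11720659_at was 1.18 and passed (adjusted p = 0.00478), and the other member calls between the lines under JQ1 held.

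HEXIM1 was lower in BE(2)-C with JQ1 than in Kelly with JQ1 on all 5 of its sets, and 4 of them passed. On the set of highest mean the difference was -0.41 and did not pass (95% interval -0.78 to -0.04, adjusted p = 0.108). That set passed in 3 of 21 alternative settings, with adjusted p down to 0.00338. These were quantile normalization, the control signal covariate and the fit without the DMSO array of highest control signal in each line. The difference was -1.24 on 11721001_at (adjusted p = 0.00435) and -1.23 on 11721000_at (adjusted p = 0.000505), both called in 12 of 12 leave-outs. The calls on 11721002_s_at (-0.93, adjusted p = 0.0499) and 11721003_at (-0.45, adjusted p = 0.0439) were weaker. The first of them held in 4 of 12 leave-outs, those of replicates 2 and 3 of Kelly DMSO and 1 and 3 of BE(2)-C DMSO. The other held in 3 of 12, those of replicates 2 and 3 of Kelly DMSO and 1 of BE(2)-C DMSO, and did not hold with the replicate block (adjusted p = 0.0737), a trended, robust prior (adjusted p = 0.0848) or a filter on dim probe sets (adjusted p = 0.054). BRD2 did not pass on either set, at -0.15 and -0.55 (adjusted p = 0.0532 for the second). The second set, 11719629_a_at, passed in 8 of 21 alternative settings, with adjusted p down to 0.00287. Among these were the replicate block (adjusted p = 0.0341), quantile normalization, the offset before log2 and the control signal covariate. The brighter set passed in 0 of 21.

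The group levels of the members were ordered by their means. No test compared groups that differ in both line and treatment. HEXIM1 was highest in the Kelly JQ1 arrays, then in BE(2)-C JQ1, Kelly DMSO and BE(2)-C DMSO by the means of all 5 probe sets, at 11.28, 10.87, 9.85 and 8.65 on the set of highest mean. The JQ1 groups did not differ by test on that set in the main fit. BRD2 had the same order on its brighter set, with means of 10.72, 10.57, 9.94 and 9.68, where neither the JQ1 groups nor the DMSO groups differed by test between the lines. HEXIM2 had means, from lowest to highest, of 6.82 (Kelly JQ1), 7.69 (BE(2)-C JQ1), 7.80 (BE(2)-C DMSO) and 7.91 (Kelly DMSO). By test, Kelly JQ1 differed from Kelly DMSO and from BE(2)-C JQ1, and the other tested pairs did not differ.

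Other genes of the elongation machinery were set beside the members: the super elongation, NELF, DSIF and PAF1 complexes, the CDK7 and CDK12 or CDK13 kinases, and JMJD6 and PPM1G, which are linked to release of P-TEFb from 7SK. Of 30 listed genes, 29 were measured. None passed with JQ1 in Kelly (background 1.40% higher and 4.06% lower) or in BE(2)-C (1.71% and 2.05%), with medians of -0.23 in Kelly and 0.05 in BE(2)-C against 0.08 and -0.01 over all genes. In the average of both lines 1 of the 29 rose, where 3.47% of all genes did, a share near the background. This was ELL2, an elongation factor that AFF4 binds (log2 fold change 0.55, SE 0.12, limma adjusted p = 0.0147). Its signal was weak, with a mean of 5.13 over the 12 arrays, where array medians of the background probes were 3.91 to 4.55. Between the lines under DMSO, 1 was lower in BE(2)-C, where 7.46% of all genes were: EAF2, an ELL-associated factor (-1.55, adjusted p = 0.000195). Under JQ1 EAF2 was again the 1 lower gene (-1.18, adjusted p = 0.00123), where 9.57% of all genes were lower. The 4 of 29 higher in BE(2)-C under JQ1 were a share near the 12.4% of all genes. They were PAF1 (1.26, adjusted p = 0.0392), SKIC8 (1.10, 0.00245), CCNH (1.51, 0.00419) and CCNK (0.90, 0.0116). Replicate 3 of Kelly JQ1 read lowest in its group for all 4. For PAF1 it read 6.39, against 7.91 and 7.88 in the other Kelly JQ1 arrays. How far these calls rest on that array was not tested. PAF1 and SKIC8 encode subunits of the PAF1 complex, and CCNH and CCNK the cyclins of CDK7 and of CDK12 and CDK13.

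The genes whose pattern was most like that of HEXIM1 were found by Pearson correlation over the 12 arrays, after the mean of each line was taken off, among 10867 genes with a mean of at least 6. These values are a description: the arrays share the treatment groups, so any gene that follows JQ1 scores high. The closest were ZSWIM6 (r = 0.993), MAPK8 (0.984), SDCBP (0.979), CDK5R2 (0.978) and the histone gene H2AC11 (0.977). ZSWIM6 rose by 1.30 in Kelly (limma adjusted p = 0.000637) and 2.00 in BE(2)-C (adjusted p = 7.64e-05), and H2AC11 by 2.00 (adjusted p = 0.000363) and 2.97 (adjusted p = 7.55e-05). The most opposed were RAC3 (r = -0.992), HDGF (-0.983) and PA2G4 (-0.983). For BRD2 the closest were AKAP13 (0.982), ARL3 (0.981), ADI1 (0.981), DNAJC1 (0.980) and TULP3 (0.978), and the most opposed were F12 (-0.981), ENTREP3 (-0.977) and NIBAN2 (-0.974). None of the 5 closest genes was shared between HEXIM1 and BRD2.

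MYCN, the gene of the study's title, averaged 13.53 ± 0.06 in Kelly with JQ1 and 13.87 ± 0.01 in Kelly with DMSO, whereas BE(2)-C averaged 13.24 ± 0.08 with JQ1 and 13.56 ± 0.07 with DMSO (SD, n = 3 each). Its log2 fold change was -0.34 in Kelly (limma adjusted p = 0.145) and -0.33 in BE(2)-C (adjusted p = 0.24), and in the average of both lines it fell by 0.34 (adjusted p = 0.0338).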

How the data were processed

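Log2 intensities of 12 PrimeView arrays were compared between JQ1 and DMSO in each line and between the lines. The authors deposited intensity values made with RMA, per the submitters' processing notes (version not given in the sources used here), which corrects background, normalizes arrays and summarises probes. RMA usually gives log2, but the deposited intensity values are linear (8.68 to 34820.2), so log2 was taken here with no offset, filter or further scaling. The table held 49395 probe sets, of which 102 controls were left out; 44988 of the rest named 1 gene, 1832 several and 2473 none. All sample columns were mapped to a label.

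For each probe set, 4 group means over 12 arrays were estimated in R 4.3.3 by limma 3.58.1, using lmFit, contrasts.fit and eBayes without trend. Tests were two-sided, and Benjamini-Hochberg adjustment ran over all 49293 probe sets, with a threshold of 0.05. The script was tested on simulated data. A gene is read first from its brightest probe set (by mean over the 12 arrays), and the named genes are the 10 members, 30 elongation genes, MYCN and the genes of most like or opposite pattern. The members and lists were chosen with earlier results of these data known. The gene of another BET protein was not analysed here.

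Same-numbered JQ1 and DMSO residuals correlated at 0.417, 0.226 and 0.51 in Kelly, each positive. In BE(2)-C they correlated at -0.032, 0.536 and -0.747, with no common sign. The labels do not say whether same-numbered samples were paired. These correlations cannot settle it, since the hybridization control signal also varied between the arrays. The main fit used no pairing. Promoter windows came from RefSeq tables of GRCh38.p14; the array files name no build. Alternatives were normalization, filter, offset, prior, gene-level reading, replicate block, control signal as a covariate, fewer arrays and leaving out each array.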

Additional observations from a re-analysis of the deposited data

How the results depend on the processing

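Precision is limited by 3 arrays per group and, for CCNT2, by signals near those of the background probes. Of 1360 single-gene values under the alternatives, 1294 kept their side of the threshold, 50 lost the call and 16 gained it. No called value changed sign, and 78 of the 1043 that were not called did. HEXIM1 passed in both lines under all 23 alternatives, BRD2 in the average of both lines under all 22 and MEPCE between the lines under all 23; the causes of other changes were not tested.

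The count of member probe sets called in Kelly was 9, 6 to 11 when each array was left out in turn, and 5 in a fit of that line's 6 arrays alone. By genes it was 3, 1 to 4 and 1. In BE(2)-C it was 7, 5 to 9 on leaving out arrays, and 11 with the hybridization control signal as a covariate; by genes it was 2, 1 to 3 and 4. In the average of both lines it was 11 (8 to 11) and by genes 5 (2 to 4). The difference of the responses gave 0 (0 in every leave-out), and 1 with the covariate, by probe sets and by genes. Between the lines under DMSO it was 6 (6 to 8), and by genes 2 (2 to 3). Under JQ1 it was 8 (4 to 11), 13 with only the 6 arrays compared, and 16 without the DMSO array of highest control signal in each line, a setting chosen after seeing the data. By genes it was 2 (1 to 2), 4 on averaging each gene's probe sets, and 5 without both DMSO arrays.

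Over all probe sets, the number called in Kelly was 2065 (890 to 4154 on leaving out arrays, 753 to 11326 under the other settings) and in BE(2)-C 1366 (464 to 1922, and 1070 to 5670). For the average it was 3595 (2217 to 4853, and 3238 to 10957), for the difference 159 (38 to 374, and 124 to 1125), between the lines under DMSO 5935 (3861 to 6864, and 3639 to 11364) and under JQ1 9831 (5347 to 12821, and 9023 to 17251).

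With the replicate block, AFF4 in the average of both lines did not pass (0.46, adjusted p = 0.0716), nor did BRD3 11757298_s_at in Kelly (0.55, adjusted p = 0.0634) or HEXIM1 11721003_at between the lines under JQ1 (-0.45, adjusted p = 0.0737), and BRD2 11719629_a_at between the lines under JQ1 did (-0.55, adjusted p = 0.0341). The block changed no other member call.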
